A study of Schizosaccharomyces pombe with 21 samples.

Results

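The tricarboxylic acid (TCA) cycle enzymes of fission yeast (*Schizosaccharomyces pombe*) were followed as mRNAs through 48 h without phosphate. The group was set by systematic ID and not by any measured value: *cit1* (SPAC6C3.04), *aco1* (SPAC24C9.06c), *idh1* (SPAC11G7.03), *idh2* (SPBC902.05c), *kgd1* (SPBC3H7.03c), *kgd2* (SPBC776.15c), *sdh1* (SPAC1556.02c), *sdh2* (SPAC140.01), *fum1* (SPCC18.18c) and *mdh1* (SPCC306.08c). These are 10 of the 6988 genes listed, and all 10 passed the filter on low values at every time. All samples were labelled as h- *ecl123*Δ cells, with *ecl1* replaced by hygMX, *ecl2* by natMX and *ecl3* by kanMX. Log-phase cells in YES, a rich yeast extract medium, gave the 0 h samples, and cells shifted to ePMGT(-PO4), which is defined, phosphate-free and holds glutamate and thiamine, gave the early samples (4, 8 and 12 h) and the late ones (24, 36 and 48 h). Each of the 7 time points had 3 biological replicates at 30 °C, and no strain with the *ecl* genes was among them, so in every comparison with 0 h phosphate loss and the new medium cannot be told apart, and the effect of the deletions was not measured.

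The TCA cycle runs in the mitochondrial matrix. It joins acetyl-CoA to oxaloacetate, oxidizes the resulting citrate step by step back to oxaloacetate, and passes the electrons as NADH and reduced flavin to the respiratory chain. Its intermediates also leave the cycle for synthesis, 2-oxoglutarate for glutamate and oxaloacetate for aspartate, and other reactions refill it. Fission yeast has no glyoxylate shunt, and in glucose medium it gains most of its ATP by fermentation while it still makes the cycle's enzymes.

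The values are the authors' mean normalised counts of each time point, that is, read counts divided by a size factor for each library and averaged over the 3 replicates. A mean carries no SD, so no test was made, and a gene was called higher or lower when its mean differed at least 2-fold from 0 h with a mean of at least 100 in the higher group. To give the differences a measure of error, whole reads per library were rebuilt for other genes, those with means of 200 to 1000. This did not succeed for every such gene. In the upper part of this range 29.7% of the genes tried were rebuilt at 0 h and 11.7% at 8 h, beside 99.5% at 48 h. Whether genes that were not rebuilt had the same spread was not tested. The measure rests on 347 rebuilt genes at 4 h, 92 at 8 h and 209 at 12 h. It rests on 337 at 24 and 36 h and on 334 at 48 h. In these genes the SE of the log2 ratio to 0 h had a median of 0.10 at 4 h, 0.12 at 8 h, 0.11 at 12 h, 0.17 at 24 h, 0.11 at 36 h and 0.10 at 48 h, with 95th percentiles of 0.18, 0.20, 0.20, 0.38, 0.21 and 0.18. The libraries at 24 h thus stood furthest apart from each other. The 95th percentile is that of a single SE and no limit of a test. A ratio larger than it is therefore not by that shown to be a change. The means of the TCA cycle genes were too large to be taken apart into reads per library, so their own spread between replicates is not given. Counting error can be given: the lowest of their means, that of *kgd2* at 0 h, rested on about 12200 reads and gave the largest counting SE of a log2 ratio, 0.016. About 18000000 to 26800000 reads were counted per library, as estimated from the same steps. The means of the deleted genes were at most 3.67 for *ecl3*, but 1472 to 4095 for *ecl1* and 1934 to 3191 for *ecl2*. The labelled deletion was thus seen in the values of *ecl3* but not in those of *ecl1* and *ecl2*; only the open reading frames were replaced, counts over exons also take in sequence outside them, and the part of such reads was not tested.

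Among the 10 genes of the group, the mRNAs of malate dehydrogenase, isocitrate dehydrogenase and the E2 subunit of 2-oxoglutarate dehydrogenase stood highest against 0 h. At 4 h, 4 of 10 genes were at least 2-fold higher (*mdh1*, *idh1*, *idh2* and *kgd2*), beside 14.2% of all genes tested. The count was 1 of 10 at 8 h and 1 of 10 at 12 h (*mdh1*), beside 21.3% and 21.9% of all genes. It was 2 of 10 at 24 h (*mdh1* and *kgd2*), beside 24.3%, then 4 of 10 at 36 h, the same genes as at 4 h, beside 22.7%, and 2 of 10 at 48 h, beside 24.3%. Read against these shares, the count was above the background at 4 and 36 h and near or below it at the other times. These shares include non-coding genes, while all 10 genes of the group code for proteins. Among protein-coding genes only, 11.8% were 2-fold higher at 4 h, 15.3% at 8 h and 16% at 12 h. Their share was 17.3% at 24 h, 17.5% at 36 h and 17.3% at 48 h. Beside protein-coding genes the count was thus below the background at 8 and 12 h and slightly above it at 24 and 48 h. No gene of the group was 2-fold lower at any time, beside 13.6% of all genes at 4 h, 17.1% at 8 h, 17% at 12 h, 18.5% at 24 h, 18.6% at 36 h and 19.8% at 48 h.

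The median log2 ratio of the 10 genes to 0 h was 0.72 at 4 h, 0.34 at 8 h, 0.37 at 12 h, 0.38 at 24 h, 0.64 at 36 h and 0.31 at 48 h. Over all genes tested the median lay between -0.05 and -0.01 at each time, and over protein-coding genes it was -0.04 at 4 h and -0.17 to -0.24 later. Thus 10 of 10 genes stood above the protein-coding median at 4, 24 and 36 h, 8 of 10 at 8 h and 9 of 10 at 12 and 48 h. The scale itself mattered. The summed means fell by 0.20 to 0.42 on the log2 scale between 0 h and the later times, and when each time point was set to the same sum, 5 genes of the group were 2-fold higher at 4 h, beside 18.6% of all genes tested, and 4 at each of the other times, beside 26.5 to 31.2%. With that scale all-gene calls shifted from 51.1 to 56.8% higher over the 6 times to 63.9 to 76.4% higher. Centring on the median protein-coding gene gave 54.2 to 68.1%, with 15 to 28.8% of all genes tested 2-fold higher.

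**Figure D1:**
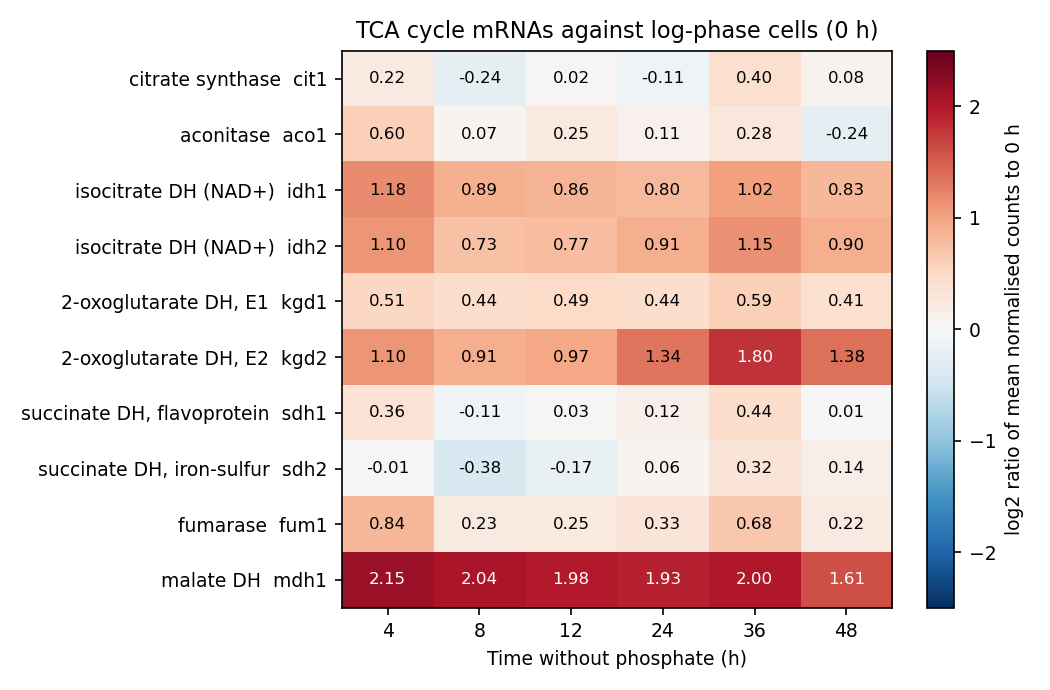
Log2 ratio of the mean normalised count to 0 h (colour and printed value) for each TCA cycle gene (rows, in the order of the cycle) at each time without phosphate in hours (columns). The rows of *mdh1*, *kgd2*, *idh1* and *idh2* are the darkest, with *mdh1* at 2.15 at 4 h, while *cit1*, *aco1*, *sdh1* and *sdh2* run from -0.38 to 0.60.

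Citrate synthase, which makes citrate from acetyl-CoA and oxaloacetate, is encoded by *cit1*. Its mean was 16656 at 0 h and then 19448, 14140, 16940, 15404, 22034 and 17595 at the 6 starved times in order. The starved means lay on both sides of the 0 h mean, and the log2 ratios of 0.02 at 12 h, -0.11 at 24 h and 0.08 at 48 h were smaller than the 95th percentile of the SE in other genes at those times. The ratios of 0.22 at 4 h, -0.24 at 8 h and 0.40 at 36 h were larger than that. The signs at 8 and 24 h turned when each time point was set to the same sum, and that at 24 h also when it was centred on the protein-coding median.

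Aconitase turns citrate into isocitrate and holds an iron-sulfur cluster. The mean of *aco1* was 36814 at 0 h, 55799 at 4 h, 38652 at 8 h, 43711.5 at 12 h, 39801 at 24 h, 44854 at 36 h and 31066 at 48 h. It was the largest mean of the group at every time, 1.52-fold above 0 h at 4 h (log2 0.60) and 0.84 times the 0 h mean at 48 h (log2 -0.24, a sign that turned when each time point was set to the same sum). At 48 h *sdh1* stood beside it at 30250, a gap below the typical SD between 48 h libraries in other genes (log2 0.09). Which was larger is thus not settled there. The *aco1* ratios of 0.07 at 8 h and 0.11 at 24 h were smaller than the 95th percentile of the SE in other genes.

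The NAD+-dependent isocitrate dehydrogenase is an assembly of Idh1 and Idh2 that makes 2-oxoglutarate and NADH. The mean of *idh1* was 5608 at 0 h and 12688, 10376, 10162, 9781, 11391 and 9997 at the 6 starved times. That of *idh2* was 5695 at 0 h and 12190, 9451, 9742, 10673, 12640 and 10656. Every starved mean of both genes was above 0 h, by 1.74-fold to 2.26-fold for *idh1* and by 1.66-fold to 2.22-fold for *idh2*. Both were past 2-fold at 4 and 36 h, and all log2 ratios, 0.73 to 1.18, were larger than the 95th percentile of the SE in other genes. The pair stayed close per kb of mRNA: the ratio of *idh1* to *idh2* was 1.05 at 0 h, between 0.96 and 1.17 later, and 1.00 at 48 h.

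On the opposite strand to *idh2*, the gene *rmn1* overlaps 348 nt (19.2%) of it in the reference annotation. The mean of *rmn1* was 67.4% of that of *idh2* at 0 h and 19.2% at 48 h. The libraries were strand-specific, but the sources used here do not say whether reads were counted by strand. Whether the *idh2* means hold reads of *rmn1* therefore cannot be told from the counts, and the part of this overlap was not tested. No overlapping gene is annotated for *idh1* or *sdh2*. Long non-coding RNAs lie opposite to *mdh1*, *aco1*, *idh2*, *sdh1*, *fum1* and *kgd1*, and a snoRNA opposite to *cit1*; these had no values here.

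The other isocitrate dehydrogenase, *idp1*, uses NADP+. It was not at 2-fold at 4 h (log2 0.06) and stood at -0.80 to -1.25 from 8 h on. Per kb of mRNA, *idh1* was at 0.394 of *idp1* at 0 h, at 0.858 at 4 h and at 1.67 times *idp1* at 48 h. The order of the 2 enzymes' mRNAs was thus turned by 8 h, where the ratio was 1.27.

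The 2-oxoglutarate dehydrogenase complex converts 2-oxoglutarate to succinyl-CoA with an E1 dehydrogenase (*kgd1*), an E2 succinyltransferase (*kgd2*) and an E3 dihydrolipoamide dehydrogenase (*dld1*), which it shares with pyruvate dehydrogenase. For *kgd1* the mean was 9733 at 0 h and 13851, 13195, 13631, 13224.5, 14697 and 12922 later. These starved means were close to each other, at log2 ratios of 0.41 to 0.59. For *kgd2* the mean was 4247 at 0 h and 9114, 7975, 8340, 10752.5, 14757 and 11038 later. It was 2.15-fold higher at 4 h and 3.47-fold higher at 36 h, and all its log2 ratios (0.91 to 1.80) were larger than the 95th percentile of the SE in other genes. Per kb of mRNA, *kgd2* stood 1.24 times above *kgd1* at 0 h, 1.87 times at 4 h, 2.86 times at 36 h and 2.43 times at 48 h.

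Most of *kgd2* (1660 nt, 76.9%) is overlapped on the opposite strand by *plh1*, annotated as a separate protein-coding gene. The mean of *plh1* was 2519 at 0 h, 1899 at 4 h and 1436 at 48 h, or 59.3%, 20.8% and 13% of that of *kgd2*. The *plh1* mean was thus lower at the times when the *kgd2* mean was higher, and its part in the *kgd2* values was not tested. For *kgd1* the overlap with a coding gene, *sul1*, was 77 nt.

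A further gene of the complex list is *kgd4*, annotated in the reference as a mitochondrial ribosomal protein and known from budding yeast as a small subunit that ties E3 to the core of 2-oxoglutarate dehydrogenase. Its mean was 678 at 0 h, 1366 at 4 h, 3086 at 24 h and 2680 at 48 h. It was past 2-fold at every starved time, with log2 ratios of 1.01 to 2.19. For the shared *dld1* the log2 ratio was 0.47 at 4 h and between -0.48 and -0.06 from 8 h on. Succinyl-CoA ligase, which takes the next step and yields a nucleoside triphosphate, has an alpha subunit (SPAC16E8.17c) and a beta subunit (*lsc2*). They were past 2-fold only at 4 h among the times measured (log2 1.03 and 1.20), and at 48 h stood at -0.12 and 0.25.

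Succinate dehydrogenase oxidizes succinate to fumarate and is also complex II of the respiratory chain. Its flavoprotein is encoded by *sdh1*, with means of 29994 at 0 h and 38520, 27819, 30668, 32685, 40662 and 30250 later. Its iron-sulfur protein is encoded by *sdh2*, with means of 13283 at 0 h and 13178, 10185, 11781, 13841, 16568 and 14631 later. Neither was past 2-fold at any time. The log2 ratio of *sdh1* ran from -0.11 at 8 h to 0.44 at 36 h, and that of *sdh2* from -0.38 at 8 h to 0.32 at 36 h. At 12, 24 and 48 h both were smaller than the 95th percentile of the SE in other genes. The sign of *sdh1* at 8 h and that of *sdh2* at 4 h turned under both other scales, and those of *sdh2* at 8 and 12 h turned when each time point was set to the same sum.

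Per kb of mRNA, *sdh1* was 1.45 times *sdh2* at 0 h, 1.87 times at 4 h, between 1.51 and 1.75 times from 8 to 36 h and 1.33 times at 48 h. The membrane anchor genes *sdh3* and *tim18* stood at log2 0.44 and 0.25 at 4 h and at 1.18 and 0.86 at 36 h. Of 4 assembly factors of the enzyme with values (*emi5*, *sdh6*, *sdh7* and *sdh8*), 0 were past 2-fold in either direction at any time, with log2 ratios of -0.56 to 0.96. Over all genes tested, 14.2 to 24.3% were 2-fold higher and 13.6 to 19.8% were 2-fold lower.

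Fumarase hydrates fumarate to malate. The mean of *fum1* was 7741 at 0 h and 13820, 9106, 9211, 9700, 12379 and 8993 later. All starved means were above 0 h, by 1.79-fold at 4 h and 1.60-fold at 36 h but only by 1.16-fold to 1.25-fold at the other times. At 24 h the log2 ratio of 0.33 was smaller than the 95th percentile of the SE in other genes, 0.38.

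Malate dehydrogenase closes the cycle, oxidizing malate to oxaloacetate. The mean of *mdh1* was 6729 at 0 h and then 29910, 27728, 26503, 25678, 26882 and 20551 at the 6 starved times in order. The 0 h mean stood far below the 6 starved means, the lowest of which was 3.05-fold above it. The log2 ratio was 2.15 at 4 h (4.44-fold), stayed between 1.93 and 2.04 through 36 h and was 1.61 at 48 h, in each case far above the 95th percentile of the SE in other genes. Of the summed means of the 10 genes, *mdh1* made up 4.93% at 0 h, 13.7% at 4 h, 16.4% at 8 h and 12.3% at 48 h. Malic enzyme (*mae2*), which also uses malate, stayed above *mdh1* per kb of mRNA at every time: *mdh1* was at 0.18 of *mae2* at 0 h, 0.726 at 8 h and 0.491 at 48 h.

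**Figure D2:**
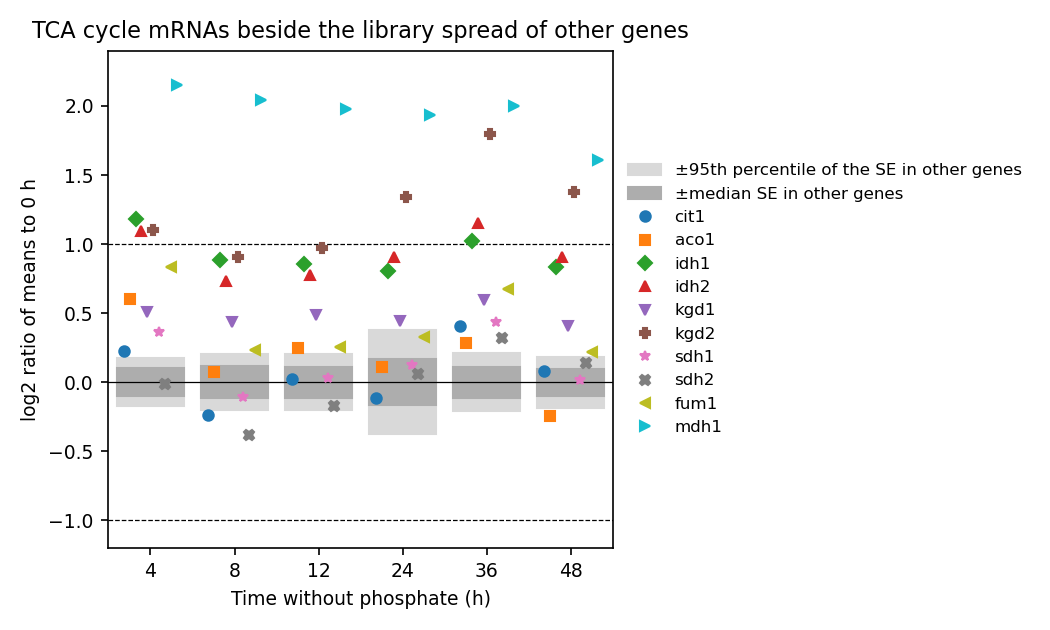
Log2 ratio of the means to 0 h (vertical axis) for the 10 TCA cycle genes (points) at each time without phosphate in hours, over bands for the median (dark grey) and the 95th percentile (light grey) of the SE of such ratios in other genes with means of 200 to 1000; dashed lines mark 2-fold. Points inside the light band number 1 at 4 h, 2 at 8 h, 3 at 12 h, 5 at 24 h, 0 at 36 h and 3 at 48 h.

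The order of the mRNA levels, on the scale of mean normalised count per kb of spliced mRNA, changed mainly through *mdh1*. At 0 h the order was *sdh1* (14546), *aco1* (13266), *sdh2* (10048), *cit1* (9926), *mdh1* (4974), *fum1* (4113), *idh1* (4102), *idh2* (3909), *kgd2* (2351) and *kgd1* (1895). *sdh2* and *cit1*, and *fum1*, *idh1* and *idh2*, were closer to their neighbours than the typical SD between 0 h libraries (0.11 on the log2 scale in other genes). At 4 h *mdh1* came first (22107), ahead of *aco1* (20108) and *sdh1* (18681), and *kgd1* came last (2697). *mdh1* remained first at all later times, by a wide margin at 8 h (20494 against 13929 for *aco1*) but at 36 h with 19868 beside 19720 for *sdh1* and at 48 h with 15189 beside 14670, gaps below the typical SD between the libraries of those times (0.11 and 0.09), so that the order of these 2 genes is not settled there. Among all protein-coding genes the level of *mdh1* per kb was at the 87.7th percentile at 0 h and the 97.8th at 4 h, and the lowest of the group, *kgd1*, at the 70.8th and the 78.7th. Together the 10 genes took 0.502% of the summed means at 0 h, 0.923% at 4 h, between 0.81 and 0.914% from 8 to 36 h and 0.741% at 48 h.

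**Figure D3:**
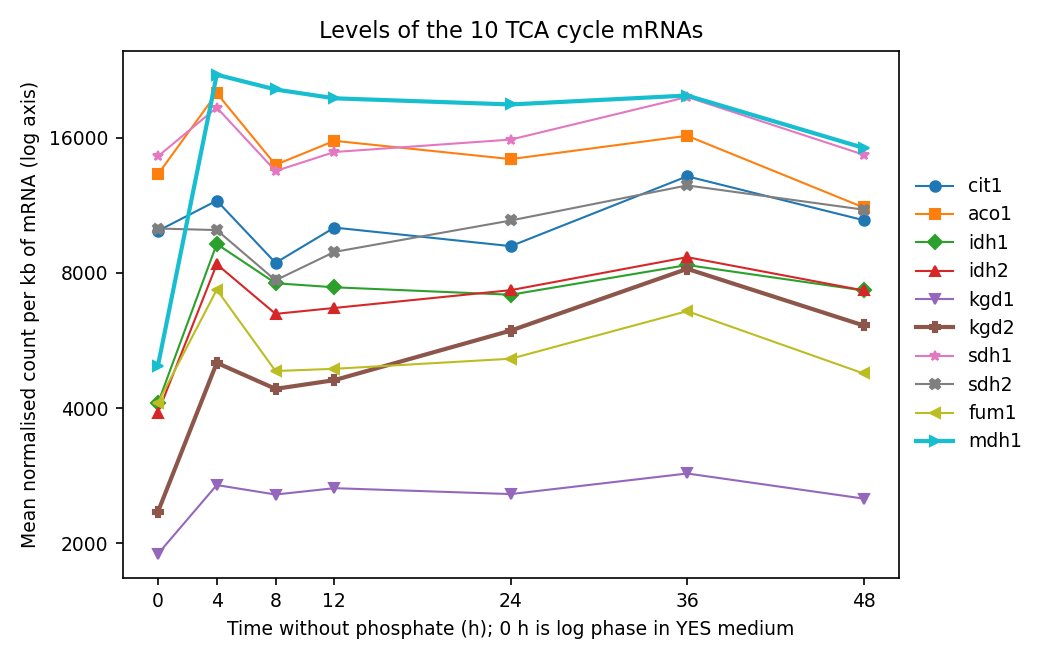
Mean normalised count per kb of mRNA (vertical log axis) of the 10 TCA cycle genes (lines) at 0 h and at each time without phosphate in hours. *mdh1* passes from 4974 to 22107 between 0 and 4 h and stays at the top, and *kgd1* is the lowest throughout, at 1895 to 2862.

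The 10 means moved in 1 direction in 3 of the steps between times. From 4 to 8 h all 10 means went down, with a median step of -0.37 on the log2 scale beside -0.13 for protein-coding genes, of which 39.8% went up. The largest step was that of *fum1* (-0.60) and the smallest that of *kgd1* (-0.07). From 24 to 36 h all 10 went up, with a median of 0.25 beside 0.04 for protein-coding genes, of which 57.2% went up. Here *cit1* (0.52) and *kgd2* (0.46) moved most and *mdh1* (0.07) least. From 36 to 48 h all 10 went down again, with a median of -0.36 beside -0.07 for protein-coding genes, of which 38.8% went up. In this step *aco1* (-0.53) moved most and *sdh2* (-0.18) least. Steps from 8 to 12 h (8 up and 2 down) and from 12 to 24 h (5 up and 5 down) were mixed and small in the median, 0.06 and 0.02. Set against the protein-coding median, 8 of 10 genes went down from 4 to 8 h, 10 of 10 up from 24 to 36 h and 10 of 10 down from 36 to 48 h; with each time point set to the same sum the counts were 7, 9 and 10. The 24 h libraries, with the widest spread, enter the step to 36 h, and no SE was computed for steps between starved times.

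Across the 7 time points, the log2 means of *idh2* followed the average of the other 9 genes most closely (Pearson r = 0.975), then *kgd1* (0.942), *idh1* (0.922), *fum1* (0.853), *kgd2* (0.844), *mdh1* (0.782) and *sdh1* (0.70). It was lowest for *cit1* (0.514), *aco1* (0.495) and *sdh2* (0.282). By Spearman's rho the order differed, with *idh2* and *sdh1* at 0.964, *fum1* and *kgd1* at 0.929, *cit1* and *aco1* at 0.679, *idh1* and *kgd2* at 0.643, *mdh1* at 0.464 and *sdh2* at 0.429. These values describe 7 means that share libraries and the same 0 h point. Among 4893 other protein-coding genes, those most like the average of the 10 were *dbs2* (r = 0.995), *osm1*, annotated as a fumarate reductase (0.983), SPCC1450.12 (0.982), *mub1*, a subunit of a ubiquitin ligase (0.978), and *pka1*, the catalytic subunit of the cAMP-dependent protein kinase (0.975). The mean of *osm1* was 3009 at 0 h, 6365 at 4 h and 4812 at 48 h, and that of *pka1* was 1665, 3707 and 2940. Most like *mdh1* alone were SPAC3C7.13c, annotated as a glucose-6-phosphate dehydrogenase (0.997), SPAC2E1P3.01, annotated as a dehydrogenase (0.994), *urg1*, annotated as a GTP cyclohydrolase (0.992), SPAC4H3.08, annotated as a 3-hydroxyacyl-CoA dehydrogenase (0.991), and the transcription factor gene *stb3* (0.991). Their changes differed much in size: the log2 ratio at 48 h was 1.73 for SPAC3C7.13c and 5.59 for *urg1*, beside 1.61 for *mdh1*.

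The 4 genes for the E1, E2 and protein X subunits of pyruvate dehydrogenase had means below 0 h at every starved time. The enzyme makes the acetyl-CoA that citrate synthase uses, and of 7 genes for it, its kinase and the pyruvate carrier, 0 were 2-fold higher at any time and 1, 4, 2, 3, 4 and 4 were 2-fold lower at the 6 starved times in order. Over all genes tested, 13.6, 17.1, 17, 18.5, 18.6 and 19.8% were 2-fold lower at these times, and 14.2 to 24.3% were 2-fold higher. The count of 1 at 4 h was near this background. It was *mpc1* of the pyruvate carrier (log2 -1.12) and not a subunit of the dehydrogenase. The mean of *lat1*, the E2 subunit, was 19321 at 0 h, 12319 at 4 h, 6649 at 8 h, 7040 at 12 h, 6450 at 24 h, 7012 at 36 h and 4898 at 48 h, so that every starved mean was below 0 h and the last was at log2 -1.98. For the E1 subunits, *pda1* went from 25309 to 10257 (log2 -1.30 at 48 h) and *pdb1* from 14464 to 4866 (-1.57), and *pdx1*, protein X of the complex, from 7032 to 3472 (-1.02). Per kb of mRNA, *kgd2* was at 0.233 of *lat1* at 0 h and at 2.39 times *lat1* at 48 h, and *kgd1* was at 0.119 of *pda1* at 0 h and at 0.39 at 48 h.

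**Figure D4:**
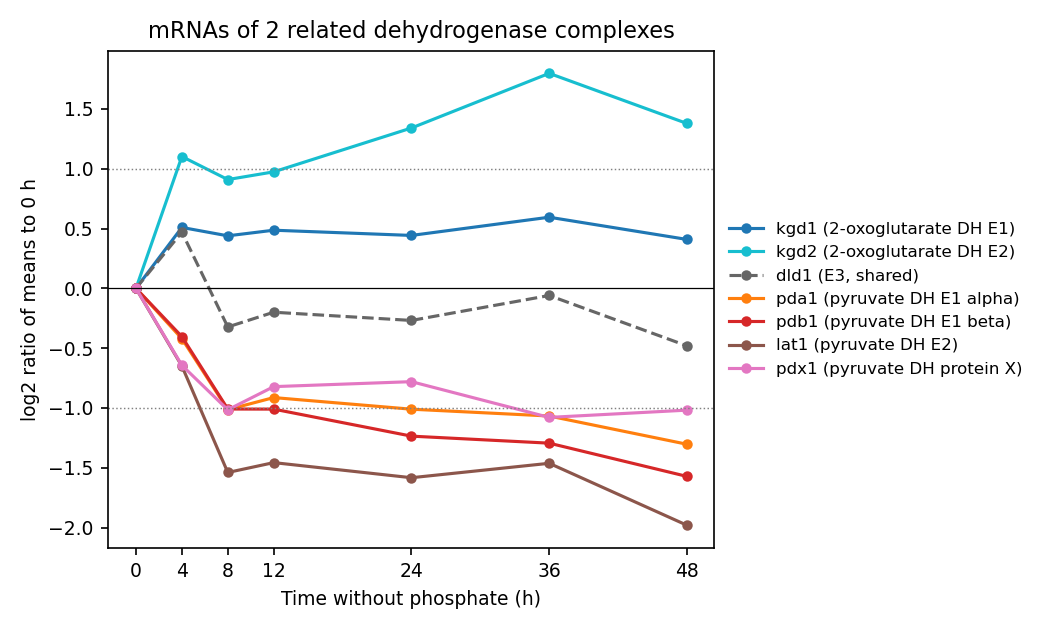
Log2 ratio of the means to 0 h (vertical axis) against time without phosphate in hours for subunit genes of 2-oxoglutarate dehydrogenase (*kgd1*, *kgd2*), of pyruvate dehydrogenase (*pda1*, *pdb1*, *lat1*, *pdx1*) and of the E3 that both share (*dld1*, dashed); dotted lines mark 2-fold. The 2-oxoglutarate dehydrogenase lines lie above 0 and the pyruvate dehydrogenase lines below 0 at every starved time, with *kgd2* at 1.38 and *lat1* at -1.98 at 48 h.

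Reactions that fill or drain the cycle were mixed. Of 6 genes, 1, 1, 1, 1, 0 and 0 were 2-fold higher and 0, 2, 1, 2, 1 and 2 were 2-fold lower at the 6 starved times in order. Over all genes tested, 14.2 to 24.3% were 2-fold higher and 13.6 to 19.8% were 2-fold lower. The mean of *gdh1*, the NADP+ glutamate dehydrogenase that makes glutamate from 2-oxoglutarate, was 36094 at 0 h and 34182 at 4 h, then 13440, 13081, 11538, 10658 and 8785, so that the 8 h and later means lay well below the first pair (log2 -2.04 at 48 h). The NAD-dependent glutamate dehydrogenase gene *gdh2* was the 1 gene 2-fold higher at 4 h, with means of 4168 at 0 h and 11194 at 4 h (log2 1.43). Later its log2 ratio was 0.28 to 0.54. The malate and succinate transporter gene *mae1* had means of 19057 at 0 h, 32383 at 4 h, 46401 at 12 h and 28292 at 48 h, and was past 2-fold at 8, 12 and 24 h (log2 1.02 to 1.28).

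The genes downstream of the cycle had larger median ratios than the cycle's own. Of 20 respiratory chain genes, 5, 10, 10, 12, 13 and 12 were 2-fold higher at the 6 starved times in order and 0 were 2-fold lower, with median log2 ratios of 0.89, 1.10, 1.06, 1.20, 1.24 and 1.23. Over all genes tested, 14.2, 21.3, 21.9, 24.3, 22.7 and 24.3% were 2-fold higher at these times. The share 2-fold lower was 13.6 to 19.8%. Small subunits of cytochrome c oxidase led: the mean of *cox8* was 1384 at 0 h, 2483 at 4 h and 9881 at 48 h (log2 2.84), *cox7* reached log2 2.81 at 24 h and *cox9* 2.20 at 24 h, and *qcr10* of the bc1 complex reached 2.29 at 48 h. The chain was not higher as a whole: at 48 h cytochrome c (*cyc1*) stood at log2 -0.71, *qcr1* at -0.24 and *qcr2* at -0.26. Of 15 ATP synthase and assembly genes, 2, 6, 7, 7, 8 and 7 were 2-fold higher and 0 were 2-fold lower. Beside the same shares of all genes, the count of 2 at 4 h was near the background. The largest ratios were those of *atp7* (log2 2.01 at 48 h), *atp5* (1.94), *atp18* (1.92) and *atp16* (1.87). The lowest ratio in this list was below 0 at every starved time, from log2 -0.15 at 4 h to -0.99 at 36 h.

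In these 35 genes the log2 ratio moved with mRNA length: Spearman's rho was -0.22 at 4 h and between -0.73 and -0.82 from 8 h on, beside 0.01 at 4 h and -0.13 to -0.23 later over protein-coding genes. The mRNAs of the 35 genes are 248 to 4795 nt long and those of the TCA cycle genes 1322 to 5136 nt, beside a protein-coding median of 1681 nt. Within the 10 TCA cycle genes rho was -0.21 at 4 h and ran from -0.13 to -0.44 later. The part of length, or of what moves with it, in these differences was not tested.

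**Figure D5:**
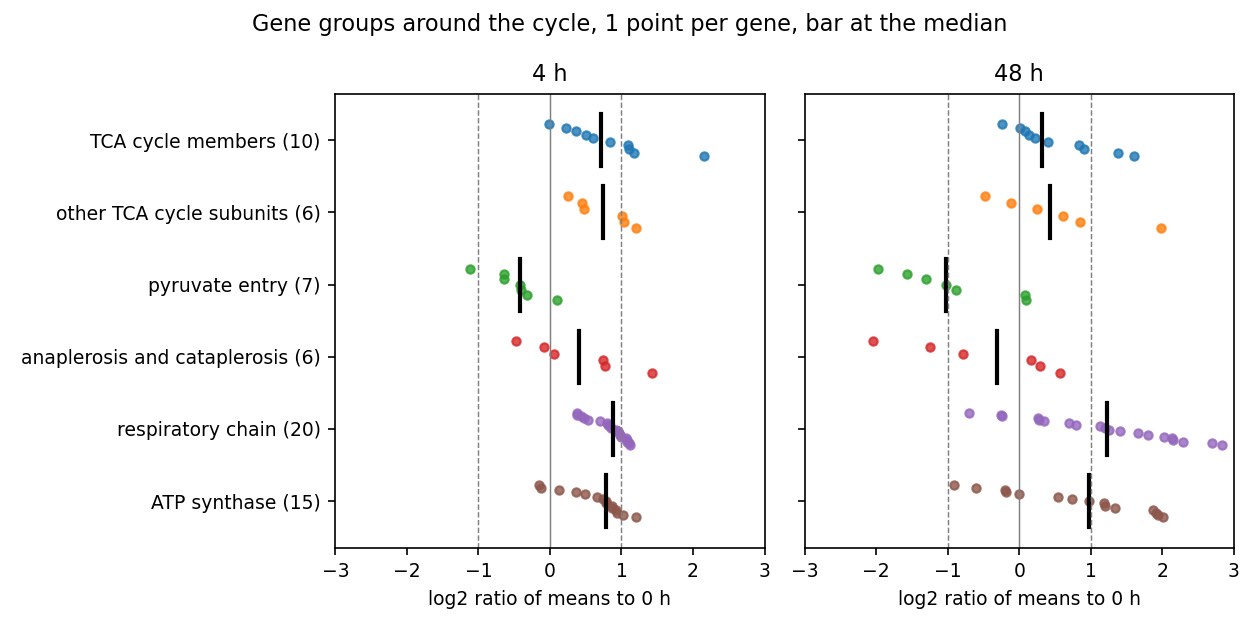
Log2 ratio of the means to 0 h (horizontal axis) at 4 h (left) and 48 h (right) for the genes of 6 groups (rows, number of genes in parentheses), 1 point per gene with a bar at the median; dashed lines mark 2-fold. The TCA cycle genes have a median of 0.72 at 4 h and 0.31 at 48 h, pyruvate entry -0.42 and -1.02, and the respiratory chain 0.89 and 1.23.

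Among regulators, the CCAAT-binding complex acts on respiratory and iron-using genes, and its partner Php4 turns it into a repressor of iron-using genes when iron is scarce. The mean of *php4* was 824 at 0 h, 722 at 4 h, 824 at 8 h, 1145 at 12 h, 1452 at 24 h, 2016 at 36 h and 1599 at 48 h, so it was past 2-fold only at 36 h among the times measured (log2 1.29). Of the 5 genes of this list, 1, 0, 0, 1, 1 and 0 were 2-fold higher and 0 were 2-fold lower. Over all genes tested, 14.2 to 24.3% were 2-fold higher and 13.6 to 19.8% were 2-fold lower. The counts at 4 and 24 h did not come from *php4*. The median log2 ratio of this list ran from 0.37 at 8 h to 0.81 at 48 h, and its lowest ratio was -0.49, at 8 h. Of 6 carbon source regulators, 1, 1, 2, 1, 2 and 2 were 2-fold higher and 0 were 2-fold lower, beside 14.2 to 24.3% of all genes 2-fold higher. The median log2 ratio of the list was 0.25 at 4 h and -0.004 at 48 h, and its lowest ratio was -0.80, at 24 h. Past 2-fold were *scr1*, a repressor active in glucose, at log2 1.17 to 1.74 at all starved times, and the stress factor gene *atf1*, which reached 1.21 at 36 h.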

How the data were processed

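Poly(A)+ RNA of 21 samples was sequenced by the authors with a strand-specific, paired-end protocol. The study's methods and the submitters' processing notes give HISAT2 2.1.0 for mapping to ASM294v2, SAMtools, HTSeq 0.10.0 for counts over annotated exons and DESeq2 for the comparisons. The authors deposited 1 table per starved time with a mean normalised count (a signal: counts over size factors) for each time point. These columns were used; the columns of the authors' own comparisons (log2 fold changes, SE, statistics, p-values) were not.

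Log2 ratios of means took no pseudocount. Whole reads per library were rebuilt from the 10 digits of each mean. This was tried for other genes with means of 100 to 1000 and did not succeed for all. The search was checked on simulated reads with a single set of size factors, which lay further apart than those at 0 h (0.947 to 0.962). The check thus does not cover size factors as close as these. The search was added after the data were seen. Gene names, products, spliced lengths and overlaps came from RefSeq ASM294v3 (6836 of 6988 IDs matched by locus tag, 12 by synonym); as that build differs, no coordinates or sequences are printed. The TCA cycle genes, the 8 lists (69 genes, 3 symbols not matched; 1 further gene is not reported here) and the rules were chosen with earlier results of these data known. List entries were corrected from product names, never from values. Named were all 10 genes, up to 4 genes per list past 2-fold at 2 consecutive times by largest change, *php4*, and the 5 genes most like the group and most like *mdh1* by Pearson's r (mean of at least 100); *dld1*, *idp1*, *mae2*, *lsc2*, SPAC16E8.17c, *sdh3*, *tim18*, the assembly factors and the overlapping genes were named in addition, as partners of a member. *mpc1* and *gdh2* were also named, each as the gene behind a 2-fold count of its list at 4 h. Python 3.11.15, pandas 2.3.3, NumPy 2.4.6, SciPy 1.17.1 and matplotlib 3.10.9 were used.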

Additional observations from a re-analysis of the deposited data

How the results depend on the processing

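The count of 2-fold higher genes depended on scale and fold. With each time point set to the same sum it was 4 of 10 at 8, 12, 24 and 48 h, beside 31.2, 30.5, 29.5 and 29.3% of all genes tested, and with centring on the median protein-coding gene 3, 3, 4 and 4, beside 25, 25.5, 28.1 and 28.8%. At 1.5-fold it was 4 at those times, and at 3-fold 1 at 4, 24 and 48 h and 2 at 36 h. The shares of all genes past 1.5-fold and 3-fold were not computed, so these counts have no background. The median log2 ratio with equal sums was 0.92, 0.76, 0.75, 0.66, 0.83 and 0.58 at the 6 starved times in order, and with centring 0.53 at 8 h, 0.54 at 12 h, 0.80 at 36 h and 0.55 at 48 h. A pseudocount of 1 or 100 or no minimum mean left these counts and medians within the limits set (1.5 times, or the spread between libraries), as did every setting for the 0 genes that were 2-fold lower. Of 60 ratios, 7 changed sign with equal sums and 3 with centring, none of them past 2-fold. By Spearman's rho, 1 of the 5 genes most like the group and 0 of the 5 most like *mdh1* stayed among the first 5. The lists as first written moved no count of a list by over 1.5 times. Leaving out a replicate, and a paired analysis, were not possible because only means were used for these genes, and the planned promoter motif count was not run. Counting error reached an SE of 0.016 on the log2 scale at most, and the spread of these genes between replicates is not given.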
